A study of Homo sapiens with 12 samples.

Results

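THP1 monocytes co-cultured with EGCG-treated senescent endothelial cells (EGCG-treated senECs) were compared with THP1 mono-culture, using 6 of the 12 sequenced libraries of the series, 3 in each group. THP1 is an established human monocytic leukemia cell line, and the endothelial cells (ECs) were human umbilical vein endothelial cells (HUVECs). The ECs of the co-culture had received etoposide (10 µM, 24 h), a topoisomerase poison that drives cells into senescence, and then EGCG (100 µM, 24 h), epigallocatechin-3-gallate, the main catechin of green tea. After washing and counting, 500000 ECs were plated per well, and 400000 THP1 cells were placed above them in an insert with 1 µm pores, so that the cells shared medium without touching. Mono-culture THP1 cells were kept in the same complete endothelial medium with no ECs beneath them. Both groups were cultured for 24 h, and all THP1 cells of both groups then received lipopolysaccharide (LPS, 100 ng/ml) for 2 h before RNA was taken. The 6 other libraries came from LPS-stimulated THP1 cells co-cultured with control ECs (DMSO, the vehicle) or with senescent ECs (senECs, etoposide without EGCG), 3 of each. EGCG was given to the ECs and not to the THP1 cells, so the comparison with mono-culture covers the presence of ECs, their etoposide exposure and their EGCG exposure together. None of the 12 samples analysed here had EGCG without etoposide, and nothing in the labels says that the 3 libraries of a group came from separate cultures, so p-values measure the spread between these libraries, which may be technical. The model is further limited to drug-induced senescence, ECs of a single vascular bed and a leukemia line in place of primary monocytes.

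Monocytes sense LPS through TLR4 and its adaptor MyD88, and the NF-kB and MAP kinase pathways below them switch on cytokine and chemokine genes within hours. ECs condition nearby monocytes through secreted cytokines, growth factors and vesicles, and senescent cells add a secretome of their own. Signals of the IL-6 family and of IL-10 act through JAK kinases and STAT3, which induces genes such as PIM1 and SBNO2.

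Library totals were 15439836 to 18159194 counts in mono-culture and 15997927 to 18736410 in the EGCG-treated senEC co-culture, and 1 count stood for 0.0536 to 0.0635 CPM in the co-culture, CPM being counts scaled to a common library size. Mitochondrial genes took 3.32% to 3.80% of counts in mono-culture and 3.10% to 4.80% in the co-culture. Co-culture library 5 held a count for 22512 genes, against 25030 to 25460 in the other 5 libraries. Of 33 endothelial marker genes, 31 were in the table, and 17 had at most 10 counts in each of the 6 libraries. CDH5, the cadherin of endothelial junctions, had at most 1 count in any library, and CLEC14A, SOX17 and MMRN1 had 0 counts in all 6. The other 14 markers had over 10 counts in at least 1 library, in mono-culture as well as in the co-culture for the next 3. EGFL7 had 287 to 394 counts in mono-culture and 328 to 416 in the co-culture. COL4A1 had 254 to 337 and 199 to 290 counts, and FLT1 99 to 194 and 124 to 278, in the same order. Summed endothelial marker levels were 325 to 339 CPM in mono-culture and 369 to 423 CPM in the co-culture, and without PECAM1 and ENG, which monocytes also express, they were 57.1 to 67.9 and 64.8 to 79.8 CPM. Monocyte markers summed to 2409 to 3046 CPM in mono-culture and 2825 to 4035 CPM in the co-culture, and markers of other cell types to 9.37 to 12.1 and 9.48 to 10.0 CPM. None of 25 endothelial, 19 monocyte or 8 other marker genes tested was called, their median log2 fold changes were 0.33, 0.28 and 0.063, and their part in the results below was not tested. In such bulk libraries, fewer cells of one type and less RNA per cell cannot be told apart.

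In the comparison of the EGCG-treated senEC co-culture with mono-culture, 55 of 25873 genes passed an adjusted p of 0.05 in edgeR's quasi-likelihood test (0.213%), 32 of them higher (0.124%) and 23 lower (0.0889%) in the co-culture. The median log2 fold change of all genes tested was -0.0013. The genes that rose included POU2F2, a lymphoid-type octamer factor, CLU, which encodes the secreted chaperone clusterin, the transmembrane mucin MUC1, the NF-kB co-regulator BCL3 and the cytokine-signal transducer STAT3. Among those that fell were the receptor tyrosine kinase AXL, the lysosomal nuclease DNASE2, the lipid-presenting molecule CD1D and the p53 target TP53I3. Rises ranged from 1.41-fold to 13.8-fold with a median of 1.78-fold, and falls from 1.48-fold to 32.8-fold with a median of 1.82-fold. The largest fall, in AC239803.3, rests on 1, 0 and 0 counts in the co-culture. A change of 2-fold or more was reached by 12 of the higher and 8 of the lower genes. The 3 libraries of one group did not overlap the 3 of the other in any of the 55 genes, while over all genes tested 1656 (6.4%) stood higher and 1998 (7.72%) lower without overlap. At an unadjusted p under 0.05 there were 2220 genes, and DESeq2 called 230, including 53 of the 55. With 3 libraries against 3, an exact permutation test of a single gene cannot go below p = 0.1, so the calls rest on the model's pooled estimate of spread.

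**Figure D1:**
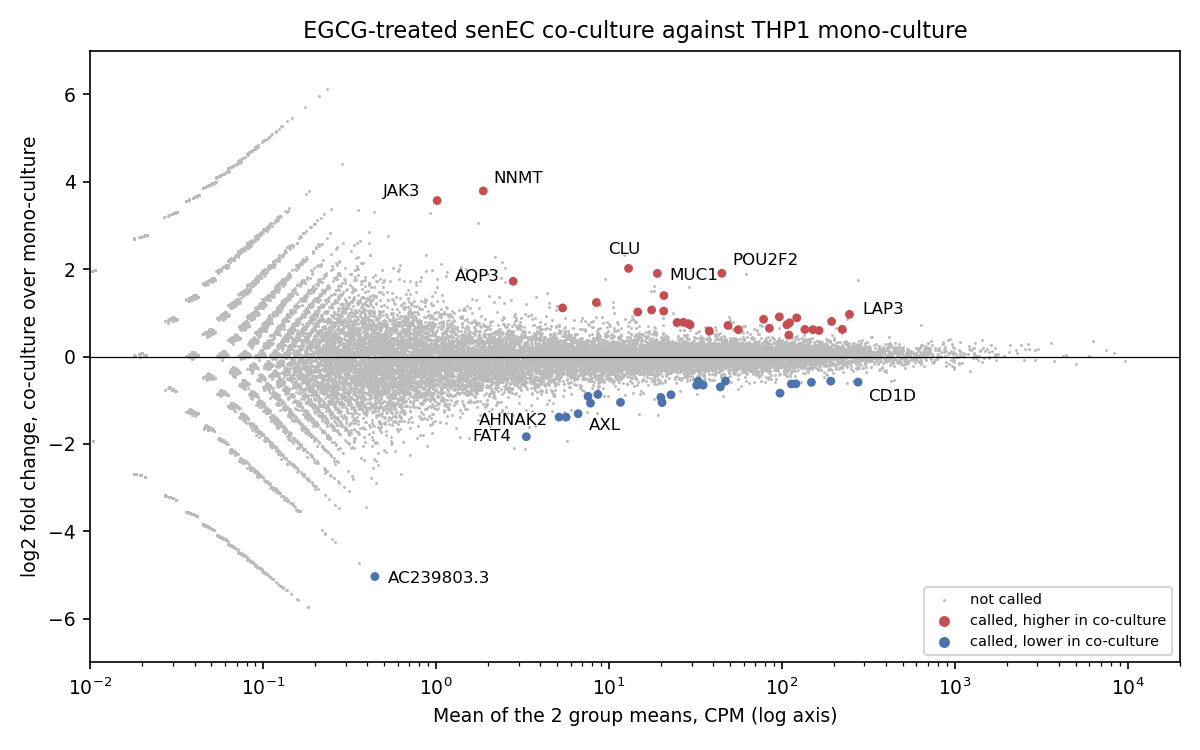
Each point is a gene, with the mean of the mono-culture and co-culture CPM on a log axis and the log2 fold change of the EGCG-treated senEC co-culture over mono-culture on the vertical axis. The 32 genes called higher are red and the 23 called lower are blue, and 110 genes at lower levels or larger folds lie outside the axes.

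Of the 55 called genes, 51 were annotated as protein coding. Positions are given on hg38 from GENCODE release 29, which holds every symbol of the count table. Values for 3 libraries are given in the order 1, 2 and 3 for mono-culture and 1, 2 and 5 for the co-culture.

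POU2F2 (chr19:42086110-42196585, minus strand) had the smallest adjusted p of all genes tested. It encodes Oct-2, a POU-domain transcription factor best known from B cells that binds the octamer sequence. Its level was 19.2, 17.4 and 20.2 CPM in mono-culture and 74.4, 71.2 and 67.1 CPM in the co-culture. The libraries lay close together within both groups and far apart between them, with a log2 fold change of 1.91 ± 0.12 (SE) and an adjusted p of 2.88e-08. Without any of the 12 libraries in turn, its log2 fold change stayed between 1.84 and 1.95 and it stayed called.

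CLU, MUC1 and AQP3 also rose by more than 2-fold. CLU (chr8:27596917-27615031, minus strand) stood at 4.35, 5.76 and 5.23 CPM in mono-culture and 14.5, 27.4 and 20.5 CPM in the co-culture, a log2 fold change of 2.02 ± 0.24 (adjusted p = 0.000437). The co-culture values of CLU spread over a wider range than those of mono-culture but did not reach down to them. MUC1 (chr1:155185824-155192916, minus strand), a heavily glycosylated membrane mucin, was at 10.5, 5.81 and 7.82 CPM in mono-culture and 40.1, 24.0 and 25.9 CPM in the co-culture. Its rise was 1.90 ± 0.21 on the log2 scale (adjusted p = 0.000280), with co-culture library 1 the highest. AQP3 (chr9:33441154-33447633, minus strand), a channel for water and glycerol, had 1.43, 1.18 and 1.27 CPM in mono-culture and 3.23, 5.21 and 4.39 CPM in the co-culture. That is a log2 fold change of 1.72 ± 0.26 (adjusted p = 0.00678) at a low level.

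SELPLG, GCNT1, CEACAM4 and NKG7 were higher as well. SELPLG (chr12:108622277-108633959, minus strand) encodes PSGL-1, the ligand through which leukocytes roll on P-selectin, and measured 11.8, 9.69 and 12.7 CPM in mono-culture and 19.0, 30.4 and 22.2 CPM in the co-culture. Its log2 fold change was 1.07 ± 0.21 (adjusted p = 0.0380), and co-culture library 2 was the highest. GCNT1, the enzyme that builds the branched O-glycans PSGL-1 carries, rose by 1.5-fold (adjusted p = 0.0285). CEACAM4 (chr19:41618971-41627074, minus strand), a carcinoembryonic antigen family member of granulocytes, was at 3.36, 3.98 and 2.86 CPM in mono-culture and 6.21, 7.75 and 8.14 CPM in the co-culture. The log2 fold change of CEACAM4 was 1.11 ± 0.22 (adjusted p = 0.0384). NKG7 (chr19:51371606-51372715, minus strand), a membrane protein of cytotoxic granules, had 9.33, 8.72 and 11.0 CPM in mono-culture and 17.8, 22.2 and 18.9 CPM in the co-culture, a log2 fold change of 1.02 ± 0.17 (adjusted p = 0.0125). Both genes separated the groups with little spread inside either.

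PARP9, METTL7B and GPRIN3 likewise rose by more than 2-fold. PARP9 (chr3:122527924-122564577, minus strand), an ADP-ribosyltransferase family member that works with the ubiquitin ligase DTX3L, rose from 11.4, 8.61 and 14.3 CPM to 23.6, 31.6 and 35.0 CPM, a log2 fold change of 1.40 ± 0.18 (adjusted p = 0.00173). It shares 2.43% of its exonic bases with DTX3L on the opposite strand. METTL7B (chr12:55681546-55684611, plus strand), a methyltransferase of the endoplasmic reticulum and lipid droplets, had 12.99, 14.2 and 13.4 CPM in mono-culture and 21.6, 35.3 and 26.7 CPM in the co-culture. Its mono-culture values were nearly level and the co-culture values spread, with a log2 fold change of 1.04 ± 0.16 (adjusted p = 0.00681). GPRIN3 (chr4:89236386-89308010, minus strand), a G protein-binding membrane protein, was at 5.97, 5.11 and 4.02 CPM in mono-culture and 9.75, 13.7 and 12.1 CPM in the co-culture, a log2 fold change of 1.24 ± 0.22 (adjusted p = 0.0190).

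Both of the largest rises were in genes near the detection floor of mono-culture. NNMT (chr11:114257787-114313285, plus strand), which methylates nicotinamide, had 6, 4 and 3 counts in mono-culture and 18, 60 and 104 counts in the co-culture. These are 0.373, 0.215 and 0.165 CPM and 1.10, 3.81 and 5.57 CPM, and the log2 fold change was 3.79 ± 0.70 (adjusted p = 0.0270). From summed counts the ratio was 14.5, with an exact 95% interval of 8.30 to 27.9 that covers counting error only. JAK3 (chr19:17824780-17848071, minus strand), the Janus kinase of receptors that use the common gamma chain, had 4, 2 and 2 counts in mono-culture and 11, 23 and 65 counts in the co-culture. In CPM these were 0.249, 0.108 and 0.110 and 0.670, 1.46 and 3.48, a log2 fold change of 3.57 ± 0.70 (adjusted p = 0.0384) and a count ratio of 12.9 (exact 95% interval 6.28 to 30.6). Their co-culture libraries differed from each other by more than those of any other gene described so far, library 5 being the highest for both and library 1 the lowest. DESeq2 gave JAK3 no adjusted p, and JAK3 and NNMT each lost the edgeR call without 5 of the 6 libraries in turn.

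**Figure D2:**
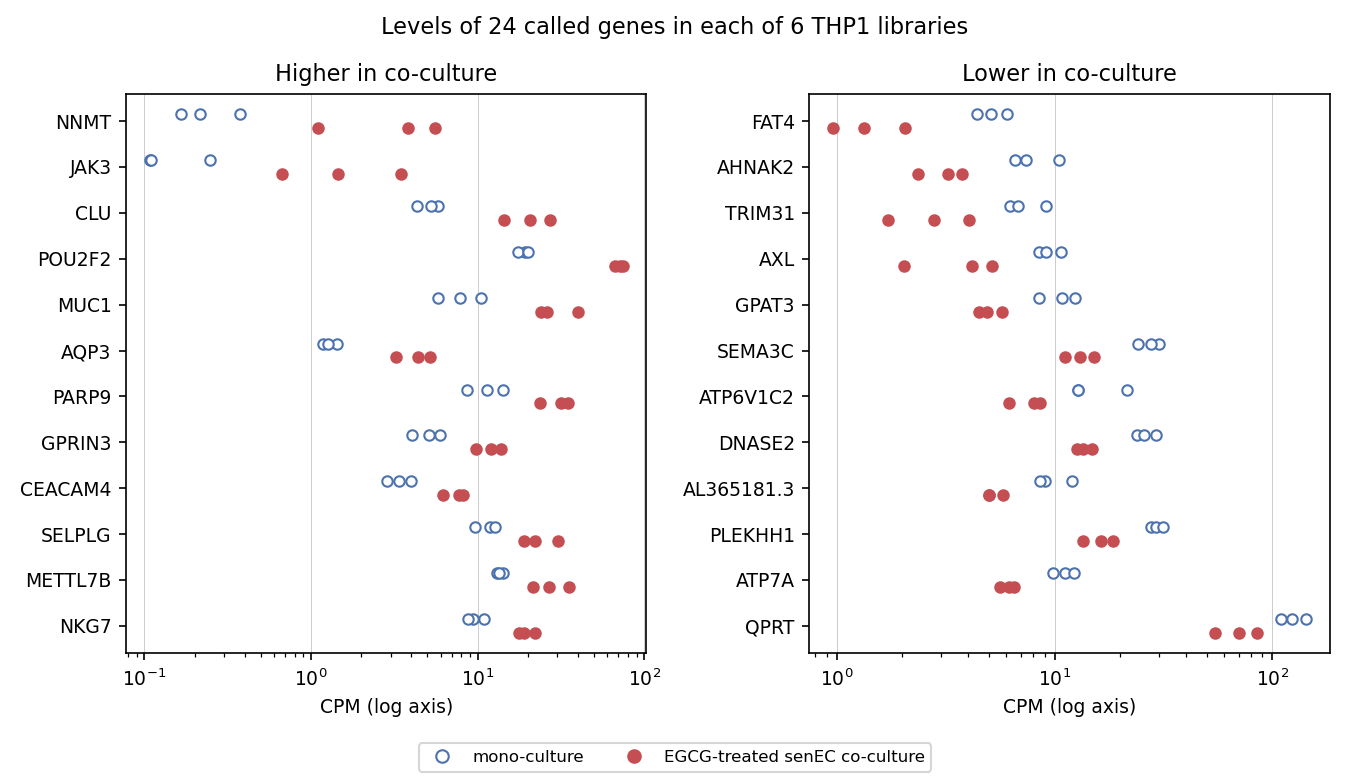
CPM on a log axis for the 12 called genes with the largest rise (left) and the 12 with the largest fall (right) whose higher group averaged at least 1 CPM, with 1 open blue point per mono-culture library and 1 filled red point per EGCG-treated senEC co-culture library. Genes were drawn only if the groups did not overlap, so in each of the 24 the 3 red points lie on one side of the 3 blue points. NNMT and JAK3 have the widest spread of red points.

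The remaining 20 genes called higher changed by under 2-fold. In cytokine signalling, STAT3 stood at 182, 169.6 and 175 CPM in mono-culture and 242, 287 and 283 CPM in the co-culture, a log2 fold change of 0.62 ± 0.10 (adjusted p = 0.00875). Every co-culture library of STAT3 was above every mono-culture library. PIM1, a kinase gene induced by STAT factors, rose from 18.5, 23.9 and 24.0 CPM to 31.2, 38.9 and 40.0 CPM, a log2 fold change of 0.73 ± 0.15 (adjusted p = 0.0406). SBNO2, a co-regulator described in the IL-10 response of macrophages, rose by 1.51-fold (adjusted p = 0.0125). BCL3, an atypical IkB protein that binds NF-kB p50 and p52 in the nucleus, had 58.3, 64.1 and 79.0 CPM in mono-culture and 129, 117 and 132 CPM in the co-culture. Its log2 fold change was 0.91 ± 0.13 (adjusted p = 0.00376). DUSP3, a phosphatase of MAP kinases, rose by 1.57-fold (adjusted p = 0.00376), and GRK6, a kinase that desensitises G protein-coupled receptors, by 1.41-fold (adjusted p = 0.0393).

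HSD11B1, the enzyme that regenerates cortisol from cortisone, was at 90.8, 96.3 and 69.4 CPM in mono-culture and 139.8, 184 and 149.7 CPM in the co-culture. Its log2 fold change was 0.89 ± 0.13 (adjusted p = 0.00376), and co-culture library 2 was the highest. LAP3, a cytosolic leucine aminopeptidase, stood at 160.1, 170.4 and 169 CPM in mono-culture and 286, 355 and 336 CPM in the co-culture, a log2 fold change of 0.97 ± 0.11 (adjusted p = 0.000437). The 3 mono-culture values of LAP3 lay within a narrow range. ID1, an inhibitor of basic helix-loop-helix factors that BMP and TGF-beta signals induce, rose from 75.8, 76.5 and 89.0 CPM to 124, 121 and 155 CPM, a log2 fold change of 0.73 ± 0.15 (adjusted p = 0.0388). FN1, the gene of fibronectin, rose from 19.96, 17.5 and 17.2 CPM to 25.3, 32.8 and 35.7 CPM, a log2 fold change of 0.78 ± 0.14 (adjusted p = 0.0260).

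The other rises were smaller changes in genes of varied function. PPP1R27, a regulatory subunit of protein phosphatase 1, rose by 1.75-fold (adjusted p = 0.00376). FAM129A, also called Niban, rose by 1.71-fold (adjusted p = 0.00551) and the transcriptional repressor NACC2 by 1.81-fold (adjusted p = 0.00882). KCNN4, a calcium-activated potassium channel, rose by 1.69-fold (adjusted p = 0.0228), and CHST11, a chondroitin sulfotransferase, by 1.53-fold (adjusted p = 0.0235). OSBPL5, a lipid-transfer protein, rose by 1.53-fold (adjusted p = 0.0245). MTSS1, a membrane-bending regulator of actin, rose by 1.72-fold (adjusted p = 0.0380) and shares 8.76% of its exonic bases with NDUFB9 on the opposite strand. PNKD and OAF rose by 1.54-fold (adjusted p = 0.00808) and 1.64-fold (adjusted p = 0.0183).

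The larger falls included FAT4, AXL, SEMA3C, AHNAK2 and TRIM31. FAT4 (chr4:125316399-125492932, plus strand), an atypical cadherin, was at 6.03, 5.11 and 4.41 CPM in mono-culture and 2.07, 1.33 and 0.964 CPM in the co-culture, a log2 fold change of -1.83 ± 0.35 (adjusted p = 0.0351). AXL (chr19:41219203-41261766, plus strand), a TAM family receptor for GAS6 with a role in the uptake of dying cells, had 8.45, 9.15 and 10.7 CPM in mono-culture and 4.20, 2.03 and 5.14 CPM in the co-culture. Its log2 fold change was -1.31 ± 0.26 (adjusted p = 0.0404), with co-culture library 2 the lowest. SEMA3C (chr7:80742538-80922359, minus strand), a secreted semaphorin, was at 24.1, 30.3 and 27.7 CPM in mono-culture and 11.1, 13.2 and 15.2 CPM in the co-culture, a log2 fold change of -1.05 ± 0.18 (adjusted p = 0.0125). In SEMA3C the groups were separated by more than the range of either. AHNAK2 (chr14:104937244-104978357, minus strand), a very large scaffold protein, had 10.4, 7.43 and 6.61 CPM in mono-culture and 3.78, 3.24 and 2.36 CPM in the co-culture, a log2 fold change of -1.39 ± 0.28 (adjusted p = 0.0458). TRIM31 (chr6:30102897-30113106, minus strand), a ubiquitin ligase, had 6.28, 9.15 and 6.83 CPM in mono-culture and 2.80, 4.07 and 1.71 CPM in the co-culture, a log2 fold change of -1.38 ± 0.27 (adjusted p = 0.0382).

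DNASE2, QPRT, GPAT3 and ATP7A were also lower. DNASE2 (chr19:12875211-12881468, minus strand), the acid nuclease that digests DNA of engulfed cells, stood at 23.9, 29.1 and 25.6 CPM in mono-culture and 13.5, 14.9 and 12.7 CPM in the co-culture. The groups were tight and well apart, with a log2 fold change of -0.94 ± 0.19 (adjusted p = 0.0384). QPRT (chr16:29679008-29698699, plus strand), which turns quinolinic acid into a precursor of NAD, fell from 123, 143 and 109 CPM to 85.2, 70.1 and 54.6 CPM, a log2 fold change of -0.84 ± 0.14 (adjusted p = 0.0147). GPAT3 (chr4:83535914-83605875, plus strand), an acyltransferase of triglyceride synthesis, had 10.8, 12.4 and 8.48 CPM in mono-culture and 4.51, 4.89 and 5.73 CPM in the co-culture, a log2 fold change of -1.07 ± 0.21 (adjusted p = 0.0393). ATP7A (chrX:77910656-78050395, plus strand), a copper pump, had 9.82, 11.2 and 12.3 CPM in mono-culture and 6.15, 6.54 and 5.62 CPM in the co-culture, a log2 fold change of -0.87 ± 0.17 (adjusted p = 0.0393). All 3 co-culture libraries of ATP7A lay within a narrow range.

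Several of the lower genes overlap others, and how the counting treated strand is not given in the sources used here. ATP6V1C2 (chr2:10721100-10785110, plus strand), a subunit of the proton pump that acidifies lysosomes, had 12.9, 12.8 and 21.4 CPM in mono-culture and 8.59, 8.07 and 6.16 CPM in the co-culture. Its log2 fold change was -1.05 ± 0.21 (adjusted p = 0.0384), and 29.7% of its exonic bases lie within exons of PDIA6 on the opposite strand, which averaged 464 CPM. AL365181.3 (chr1:156641666-156644887, minus strand), an antisense RNA that shares 10.2% of its exonic bases with BCAN, had 9.01, 12.0 and 8.54 CPM in mono-culture and 5.00, 5.78 and 4.98 CPM in the co-culture. The log2 fold change of AL365181.3 was -0.91 ± 0.18 (adjusted p = 0.0384). PLEKHH1 (chr14:67533301-67589612, plus strand), a pleckstrin homology domain protein, had 27.9, 29.1 and 31.6 CPM in mono-culture and 18.6, 16.3 and 13.4 CPM in the co-culture, a log2 fold change of -0.87 ± 0.17 (adjusted p = 0.0320). It shares 5.16% of its exonic bases with PIGH. Further overlaps of called genes, higher or lower, were present for GRK6 (9.16% of exonic bases, F12), TRIM31 (4.92%, TRIM31-AS1) and TP53I3 (3.46%, FAM228B). METTL7B (2.92%, ITGA7), AHNAK2 (2.91%, PLD4) and GCNT1 (2.83%, PRUNE2) overlap as well, and PLD4 averaged 238 CPM. ATP7A shares 0.888% of its exonic bases with PGK1 on the same strand, which averaged 706 CPM. QPRT (15.7%) and DNASE2 (7.58%) overlap genes that were at 0 CPM.

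At higher levels, CD1D, which presents lipids to NKT cells, was at 325, 355 and 312 CPM in mono-culture and 227, 242 and 193 CPM in the co-culture, a log2 fold change of -0.58 ± 0.11 (adjusted p = 0.0373). TP53I3, a p53-induced quinone oxidoreductase, fell from 178, 192 and 164 CPM to 139, 118 and 97.8 CPM, a log2 fold change of -0.59 ± 0.12 (adjusted p = 0.0384). Its co-culture library 1 was the closest to mono-culture. DAPK1, a calmodulin-dependent death-associated kinase, was 1.48-fold lower (adjusted p = 0.0183), and GALM, the mutarotase of galactose, 1.57-fold lower (adjusted p = 0.0147). NCF1C, a pseudogene of the p47-phox gene NCF1 that can share its reads, was 1.54-fold lower (adjusted p = 0.0278). SEL1L3 was 1.48-fold (adjusted p = 0.0290), TMEM154 1.48-fold (adjusted p = 0.0384) and TMEM229B 1.62-fold lower (adjusted p = 0.0125). ZNF117, a zinc finger gene that overlaps ERV3-1, was 1.54-fold lower (adjusted p = 0.0380), and the antisense RNA SATB1-AS1 1.58-fold lower (adjusted p = 0.0276). The long noncoding RNA AC239803.3 had 12, 22 and 12 counts in mono-culture and 1, 0 and 0 in the co-culture. From summed counts the mono-culture to co-culture ratio was 44.3, with an exact 95% counting interval of 7.56 to 1786. Its fitted log2 fold change was -5.03 ± 0.91 (adjusted p = 0.0235), at a mean of 0.864 CPM in mono-culture. DESeq2 gave it no adjusted p, and the edgeR call was lost without 5 of the 6 libraries in turn.

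Of the 55 calls, 11 held without each of the 6 compared libraries in turn, namely POU2F2, CLU, MUC1, PARP9, METTL7B, LAP3, BCL3, HSD11B1, PPP1R27, FAM129A and DUSP3. All 11 were higher in the co-culture, and the other 44, among them all 23 lower genes, lost the call at least once. GRK6, TMEM154, DNASE2, GPAT3, ATP7A and AL365181.3 lost the call without each of the 6 libraries in turn. AXL, CD1D, TP53I3, FN1, SELPLG, PIM1 and ID1, among others, lost the call without 5 of the 6. The direction stayed the same in all 55. Without mono-culture library 1, 2 or 3, 23, 12 and 19 of the 55 stayed called, and without co-culture library 1, 2 or 5, 44, 19 and 19 did.

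In direct tests against the other co-cultures no gene passed the threshold as tested here, while some alternatives called genes. Between the EGCG-treated senEC and the senEC co-culture, edgeR called 0 of 25873 genes (0%) and DESeq2 called 0, with 575 genes at an unadjusted p under 0.05 in edgeR. Between the EGCG-treated senEC and the control EC co-culture, edgeR called 0 (0%) and DESeq2 0, with 1177 genes at an unadjusted p under 0.05. Without the filter on low counts edgeR called 14 genes against senECs and 43 against control ECs. Of the 55 genes called against mono-culture, 42 differed from the senEC co-culture by less than 1 SE. From the control EC co-culture, 28 of the 55 differed by less than 1 SE. The median size of the difference was 0.095 from senEC and 0.16 from control EC on the log2 scale. The share of all genes tested within 1 SE was not computed, so the counts of 42 and 28 have no background beside them. All 3 co-cultures were set against the same mono-culture libraries, so levels are given side by side below rather than as separate comparisons.

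POU2F2 averaged 70.9 ± 3.64 CPM (mean ± SD, n = 3) in the EGCG-treated senEC co-culture, 64.3 ± 9.18 CPM in the senEC co-culture, 63.9 ± 2.76 CPM in the control EC co-culture and 18.9 ± 1.41 CPM in mono-culture. The log2 difference of the EGCG-treated senEC group was 0.14 ± 0.11 (SE) from senECs and 0.15 ± 0.11 from control ECs. STAT3 averaged 271 ± 24.8, 272 ± 6.30 and 279.6 ± 25.8 CPM in these 3 co-cultures, in the same order, and 176 ± 6.36 CPM in mono-culture. CLU averaged 20.8 ± 6.45, 23.6 ± 5.62 and 18.5 ± 4.53 CPM in that order and 5.11 ± 0.712 CPM in mono-culture. For these 3 genes the co-culture means lay closer to each other than to mono-culture. The same held for lower genes such as CD1D, which averaged 221 ± 25.2, 221 ± 13.3 and 206 ± 27.4 CPM in the co-cultures in that order and 331 ± 22.2 CPM in mono-culture. HSD11B1 averaged 158 ± 23.4, 166 ± 16.0 and 154 ± 8.61 CPM in the co-cultures and 85.5 ± 14.2 CPM in mono-culture.

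Of the 55 genes, 10 differed from control ECs and 2 from senECs at an unadjusted p under 0.05 in edgeR. None of them was called after adjustment. For background, 1177 of the full 25873 genes reached that unadjusted level against control ECs and 575 against senECs. The 55 had been selected with the same EGCG-treated senEC libraries, so the counts of 10 and 2 are not independent of that selection. FN1 averaged 31.3 ± 5.40 CPM in the EGCG-treated senEC co-culture and 30.2 ± 2.01 CPM in the senEC co-culture, but 20.2 ± 3.01 CPM in the control EC co-culture and 18.2 ± 1.52 CPM in mono-culture. Its log2 difference was 0.63 ± 0.14 from control ECs and 0.05 ± 0.14 from senECs, and the adjusted p against control ECs was 0.979 in edgeR. Among the other higher genes, OAF (0.37 ± 0.12), NKG7 (0.36 ± 0.17) and KCNN4 (0.31 ± 0.13) had positive log2 differences from control ECs. Among the lower genes, AC239803.3 had the largest differences, -3.65 ± 0.98 from control ECs and -3.84 ± 0.97 from senECs, fitted values that rest on 1, 0 and 0 counts in the EGCG-treated senEC libraries. FAT4 averaged 1.46 ± 0.564 CPM with EGCG-treated senECs, 1.81 ± 0.995 CPM in the senEC co-culture, 3.18 ± 0.711 CPM in the control EC co-culture and 5.18 ± 0.814 CPM in mono-culture, a log2 difference of -1.13 ± 0.36 from control ECs. AHNAK2 (-0.64 ± 0.29), AL365181.3 (-0.43 ± 0.18), ATP7A (-0.42 ± 0.17) and TMEM229B (-0.27 ± 0.11) were the remaining lower genes of these 10, and QPRT (-0.30 ± 0.14) was the other gene that differed from senECs.

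**Figure D3:**
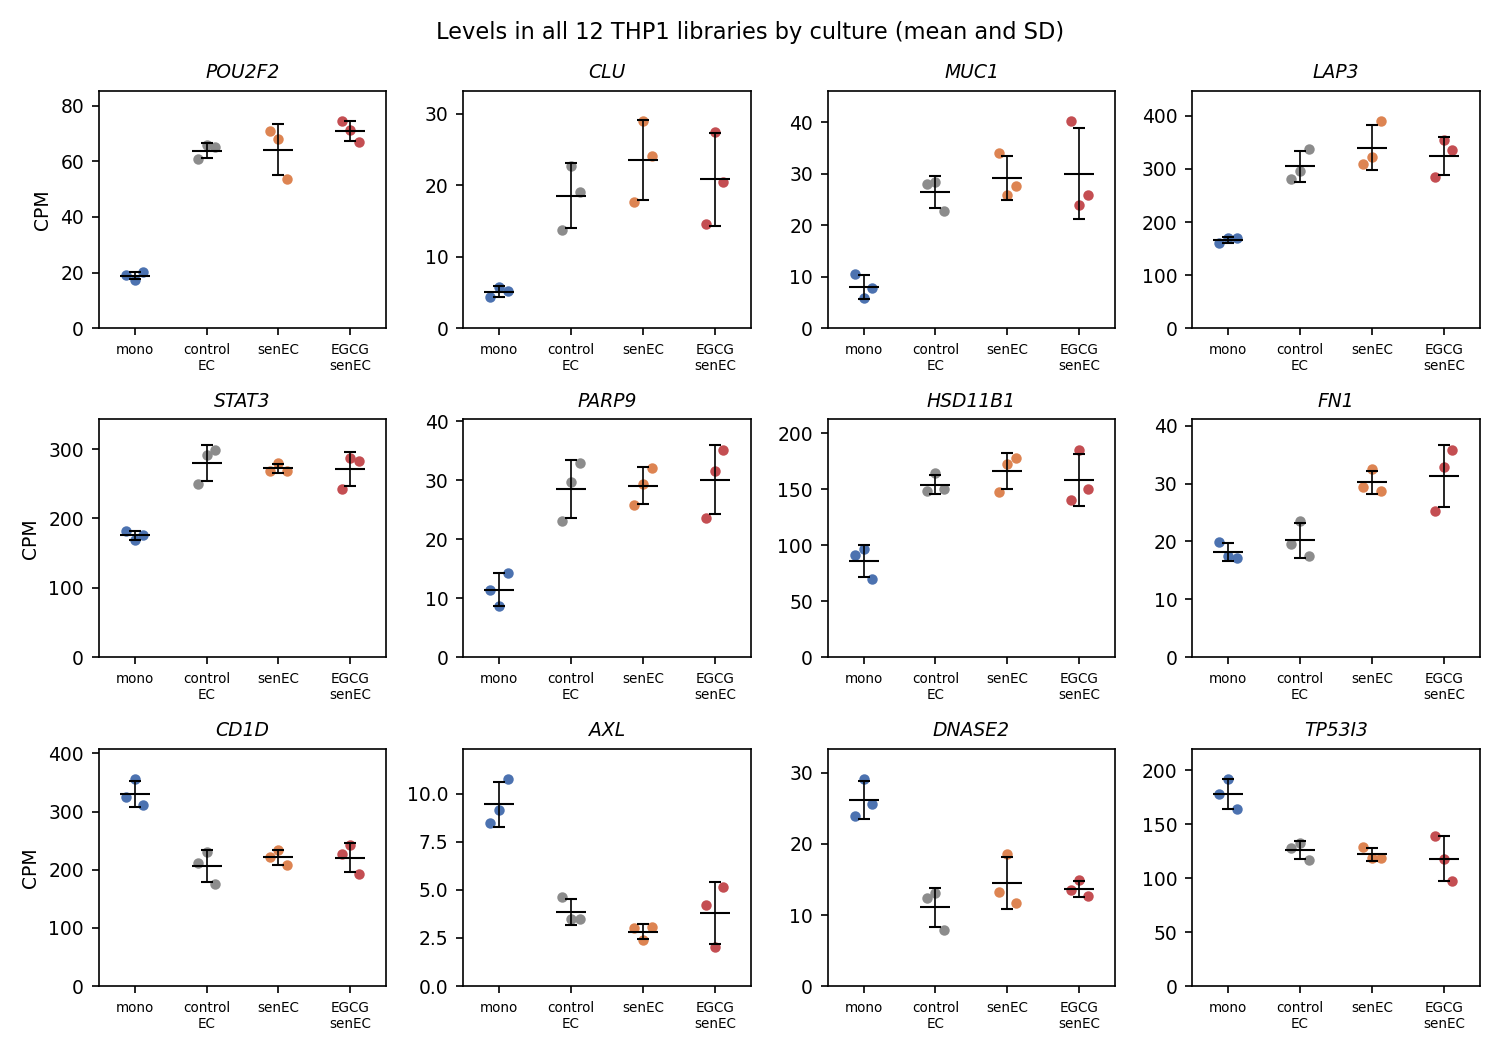
CPM of 12 called genes in all 12 libraries, with 1 point per library for mono-culture, control EC, senEC and EGCG-treated senEC co-culture, and bars for the mean and SD of 3 libraries. POU2F2, STAT3 and the other rising genes are higher in each co-culture than in mono-culture except FN1, whose control EC points lie near the mono-culture points, and the genes in the bottom row are lower.

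The main cytokine genes of the LPS response differed more between libraries of a group than between the groups. The authors displayed a set of inflammatory genes chosen on these samples, so its direction is no independent evidence. Of its 17 genes, 0 were called in edgeR (smallest adjusted p = 0.342) and 4 had an unadjusted p under 0.05. DESeq2 called 0 of the 15 genes to which it gave an adjusted p. A positive log2 fold change was found in 15 of the 17, with a median of 0.33. IL1B, the gene of the pyrogenic cytokine interleukin-1 beta, was at 131, 270.1 and 611 CPM in mono-culture and 156, 260.4 and 747 CPM in the co-culture. The highest library was 4.67 times the lowest in mono-culture and 4.79 times in the co-culture, and the log2 fold change was 0.20 ± 0.62 (adjusted p = 0.965). CXCL8, the neutrophil chemokine, was at 280.4, 569 and 613 CPM in mono-culture and 251, 408 and 771 CPM in the co-culture, a log2 fold change of -0.03 ± 0.42 (adjusted p = 1). In both genes library 1 was the lowest of its group, and mono-culture library 3 and co-culture library 5 were the highest.

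IL6 was near the detection floor, at 0.124, 0.377 and 0.331 CPM in mono-culture and 0.305, 0.254 and 0.321 CPM in the co-culture. IL12B, which encodes the p40 chain of interleukin-12 and interleukin-23, was at 1.18, 2.96 and 2.75 CPM in mono-culture and 1.83, 1.46 and 4.12 CPM in the co-culture. IL23A, the p19 chain of interleukin-23, was at 11.1, 23.6 and 32.8 CPM in mono-culture and 7.62, 15.6 and 29.1 CPM in the co-culture, a log2 fold change of -0.37 ± 0.44 (adjusted p = 0.871). IL1B, IL6, CXCL8, IL12B and IL23A, which were also assayed by RT-PCR, all overlapped between the groups. Each log2 fold change was smaller than its SE in this fit, which has no replicate block. With a replicate block IL23A was called (-0.52, adjusted p = 0.0423 in edgeR). By RT-PCR, with GAPDH as the reference gene, the authors reported lower IL1B, IL6 and CXCL8 with EGCG-treated senECs than in mono-culture. IL1A, the membrane-associated interleukin-1, was at 5.78, 15.7 and 48.4 CPM in mono-culture and 8.83, 8.51 and 38.5 CPM in the co-culture. The monocyte chemokine CCL2 was at 8.14, 6.89 and 16.0 CPM, against 5.12, 15.6 and 33.5 CPM in the co-culture, and CCL5 at 49.4, 58.0 and 76.1 CPM, against 53.4, 63.9 and 85.1 CPM in the co-culture, with overlap in both.

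MYD88 and NOD2 spread less within a group than IL1B. MYD88, the adaptor of TLR4, was at 46.6, 43.4 and 55.6 CPM in mono-culture and 56.8, 60.4 and 65.2 CPM in the co-culture, a log2 fold change of 0.33 ± 0.11 (adjusted p = 0.342). NOD2, a sensor of muramyl dipeptide, was at 3.79, 4.52 and 4.35 CPM in mono-culture and 7.80, 6.67 and 4.55 CPM in the co-culture, a log2 fold change of 0.58 ± 0.24 (adjusted p = 0.527). The groups did not overlap for MYD88 and NOD2, 2 of the 17, against 6.4% of all genes tested that stood higher without overlap. TLR4 was at 27.3, 31.1 and 33.4 CPM in mono-culture and 21.1, 41.4 and 55.3 CPM in the co-culture, and NFKB1, which encodes p105 and p50, at 147, 205 and 274 CPM, against 176, 240.1 and 354 CPM in the co-culture. IL7R, the interleukin-7 receptor, had the largest log2 fold change of the 17, 2.32 ± 0.94 (adjusted p = 0.516), from 1.06, 2.96 and 8.04 CPM in mono-culture and 3.59, 10.8 and 46.3 CPM in the co-culture. Its lowest co-culture library fell within the mono-culture range. Leaving out 1 of the compared libraries moved the log2 fold change of IL7R between 0.82 and 3.31, the lowest without co-culture library 5. Without the filter on low counts edgeR called IL7R (adjusted p = 2.48e-32), MMP9 (adjusted p = 0.00295) and CCL2 (adjusted p = 3.08e-04). The log2 fold change of IL7R in that fit was 2.33, nearly the same as with the filter. Its call there thus rests on a smaller estimate of spread for the same overlapping libraries. Other settings that called genes of this set are given with the processing. The protease MMP9 was at 1.18, 1.35 and 3.53 CPM in mono-culture and 1.71, 1.91 and 10.2 CPM in the co-culture, and IL1R1, the interleukin-1 receptor, at 2.98, 2.37 and 3.64 CPM, against 3.59, 5.15 and 5.62 CPM in the co-culture. The low-level genes OSMR, CASP5 and SAA2 were measured at a few CPM or less in every library and overlapped between the groups.

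**Figure D4:**
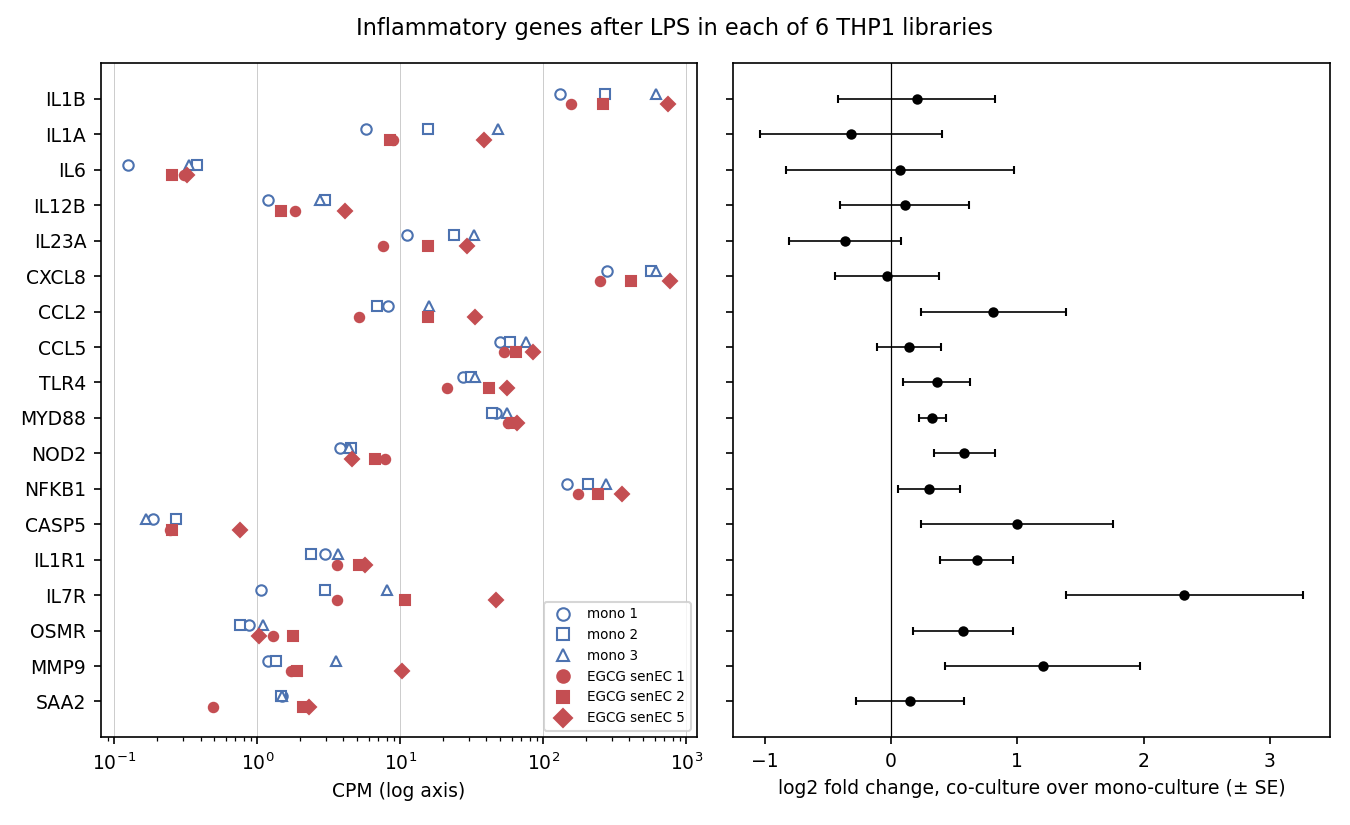
Left, CPM on a log axis of 18 inflammatory genes in each mono-culture library (open blue) and EGCG-treated senEC co-culture library (filled red), with the marker shape giving the library number, and right, the log2 fold change with its SE. The libraries of each group spread widely for IL1B, IL1A, CXCL8 and IL7R, and most SE bars of the cytokines cross 0.

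Wider gene lists were described by their counts and median, beside the median of -0.0013 and the 0.124% higher and 0.0889% lower calls of all genes tested. In the list of TLR4 receptors and adaptors 0 of 16 genes were called and the median log2 fold change was 0.040. IRAK1, a kinase of this pathway, was at 431, 378 and 399.8 CPM in mono-culture and 543, 477 and 488 CPM in the co-culture (adjusted p = 0.270). Of 17 NF-kB subunits and inhibitors, only BCL3 was called and the median was 0.21. None of 17 LPS-induced cytokines (median 0.091), 17 chemokines (median 0.33) and 22 AP-1, EGR and dual-specificity phosphatase genes (median 0.035) was called. TNF, the second most abundant gene of the cytokine list after IL1B, was at 60.9, 78.7 and 143 CPM in mono-culture and 68.0, 41.9 and 93.2 CPM in the co-culture, and the chemokine CCL20 at 119, 315 and 410.1 CPM, against 161, 339 and 654 CPM in the co-culture.

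Of 24 genes of the IL-6 family, STAT3 and SOCS list, STAT3 and PIM1 were called higher and none lower, and 18 had a positive log2 fold change with a median of 0.26. The interferon-stimulated genes had 0 of 34 called, but 29 had a positive log2 fold change, with a median of 0.50, and 7 stood higher without overlap against 6.4% of all genes. OAS3, an antiviral sensor of double-stranded RNA, was at 31.3, 29.7 and 42.5 CPM in mono-culture and 34.8, 45.4 and 113 CPM in the co-culture, where library 5 was far above the others (adjusted p = 0.350). BST2, or tetherin, was at 60.9, 90.3 and 74.9 CPM in mono-culture and 68.7, 95.9 and 83.1 CPM in the co-culture. In the glucocorticoid list HSD11B1 was the only one of 19 called, and in the TGF-beta list ID1 the only one of 20, with medians of 0.027 and -0.0026.

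CD1D was the only called member of 14 CD1 and MHC class II genes, of which 12 had a negative log2 fold change with a median of -0.26. None of 16 MHC class I genes was called (median 0.10), and the class I light chain B2M was at 1007, 1459 and 1383 CPM in mono-culture and 1001, 1462 and 1344 CPM in the co-culture. CLU was the only one called of 21 complement genes (median 0.094), and POU2F2 the only one of 11 octamer and B-cell type factors (median 0.13). The 23 monocyte lineage factors had 0 called and a median of 0.038. SPI1, which encodes the myeloid master regulator PU.1, was at 226, 245 and 263 CPM in mono-culture and 315, 305 and 319.7 CPM in the co-culture, without overlap (adjusted p = 0.276).

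For atherosclerosis-linked functions, FN1 was the only one called of 25 osteopontin, matrix and protease genes (median 0.066) and SELPLG of 24 integrins and adhesion molecules (median 0.16). None of 28 scavenger receptor and foam cell lipid genes was called (median -0.036), nor any of 29 cholesterol and fatty acid synthesis genes (median -0.048). LPL, lipoprotein lipase, was at 644, 757 and 909 CPM in mono-culture and 593, 713 and 804 CPM in the co-culture, and the scavenger receptor CD36 at 223, 297 and 231 CPM, against 159.9, 270.0 and 222 CPM in the co-culture. DNASE2 was the only one called of 39 lysosomal genes (median 0.046). The 9 S100 alarmin and haptoglobin genes had the highest median of any list, 0.63, with 0 called. S100A9, a subunit of calprotectin, was at 71.7, 99.1 and 206 CPM in mono-culture and 143, 406 and 726 CPM in the co-culture, where library 1 lay inside the mono-culture range (adjusted p = 0.398).

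Housekeeping and metabolic lists held no called gene. The nuclear genes of oxidative phosphorylation (76, median 0.058), the mitochondrial genome (13, median 0.27), glycolysis and hypoxia (32, median 0.18), cytosolic ribosome (76, median 0.031) and reference genes (10, median 0.085) were each at 0 called. LDHA, lactate dehydrogenase A, was at 806, 838 and 804 CPM in mono-culture and 957, 1211 and 1046 CPM in the co-culture, without overlap (adjusted p = 0.248). ACTB, a common reference gene, was at 5565, 6119 and 6139 CPM in mono-culture and 5569, 6346 and 6138 CPM in the co-culture. All 25 S phase genes had a positive log2 fold change with a median of 0.16, 13 of them stood higher without overlap against 6.4% of all genes tested, and 0 were called, while 28 G2/M genes had a median of 0.056. MCM7, a subunit of the replicative helicase, was at 442, 421 and 399 CPM in mono-culture and 497, 480.3 and 465 CPM in the co-culture (adjusted p = 0.596). TP53I3 was the only called one of 22 p53 targets (median 0.026), and none of 28 NRF2 and antioxidant genes (median 0.036), 26 unfolded protein and stress response genes (median 0.038) and 17 inflammasome genes (median -0.026) was called. No member was called of the coagulation list (16, median 0.27), the EGF family list (12, median 0.28), the metallothionein and zinc transport list (10, median 0.11) or the replication-dependent histones (19, median 0.16).

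**Figure D5:**
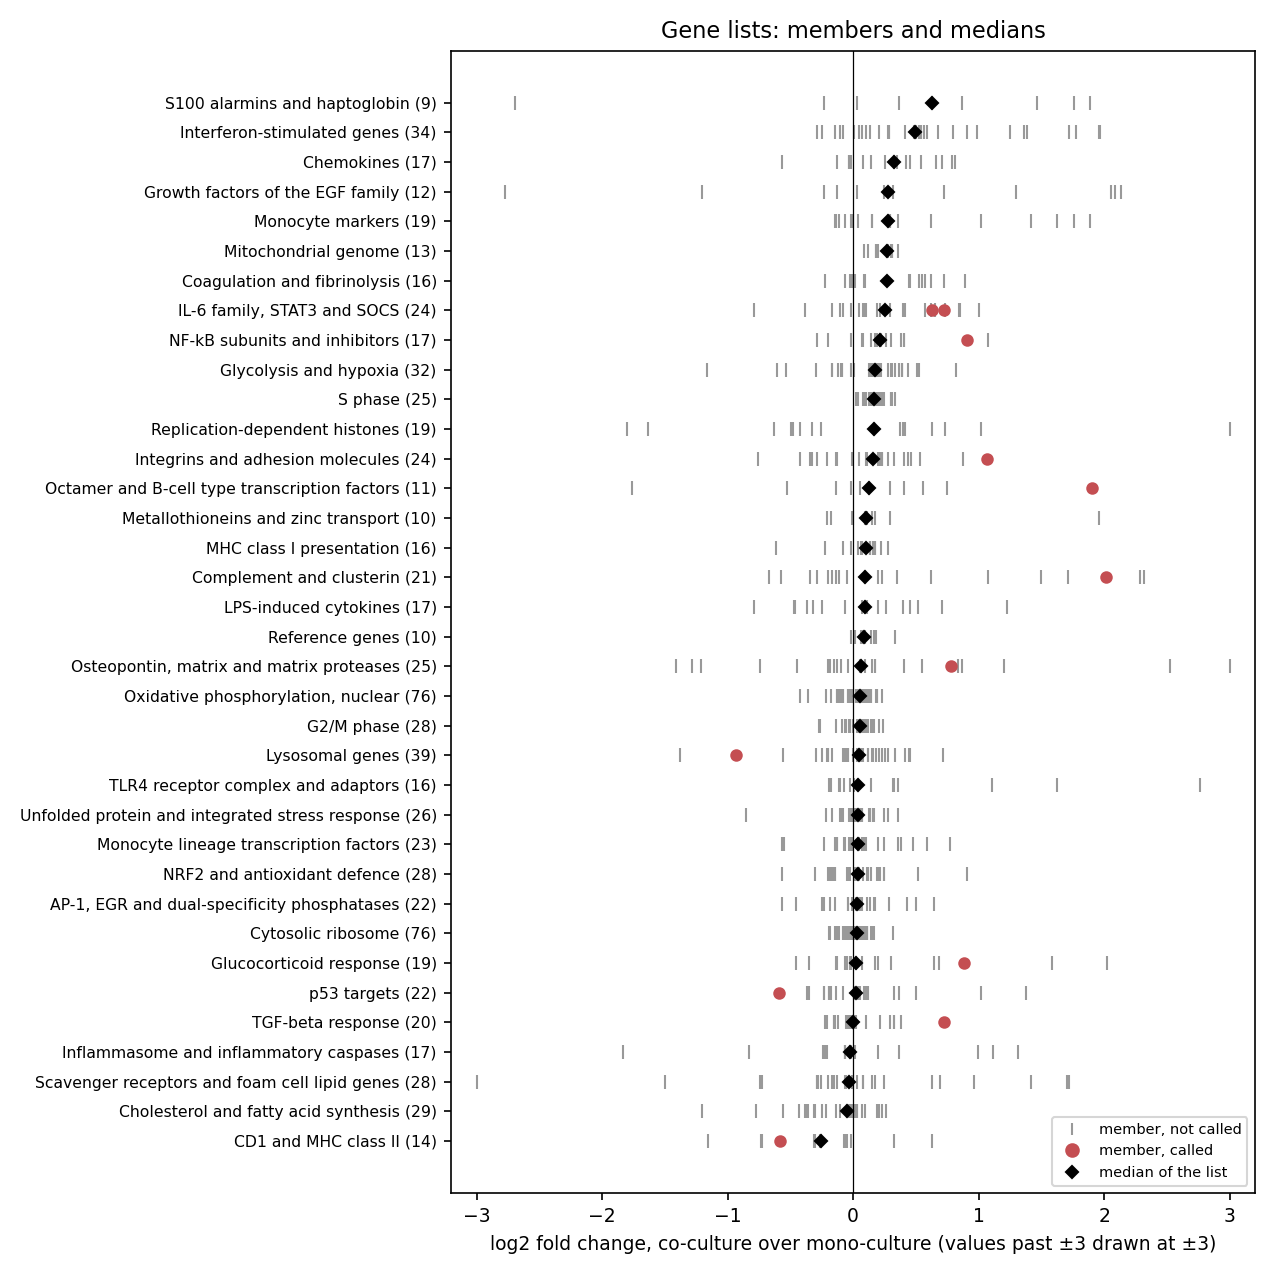
Log2 fold change of every tested member (grey ticks, red points where called) and the median (black diamond) of 36 gene lists, with the number of tested members in brackets and the median of all genes as the vertical line. Medians run from -0.26 for CD1 and MHC class II genes to 0.63 for S100 alarmins and haptoglobin, and the called members are mostly 1 per list.

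Promoter windows of RefSeq (GRCh38.p14), from 250 bases before to 50 bases after a start, were on hand for 42 of the 55 called genes, 24 higher and 18 lower. They were searched on both strands for the octamer ATGCAAAT that POU2F2 binds, the STAT pattern TTCNNNGAA, the kappa-B pattern of NF-kB, the AP-1 pattern TGANTCA and the CRE TGACGTCA. The octamer was in windows of 1 higher and 2 lower genes, against 1.96% of genes tested, and the STAT pattern in 1 higher and 0 lower genes, against 8.82%. The kappa-B pattern, which is short of fixed letters and can overlap the others, was in 23 higher and 13 lower genes, against 76.7%. AP-1 letters were in 1 higher and 0 lower genes, against 7.63%, and the CRE in 2 higher and 0 lower, against 3.35%. These stretches of 61 bases, 5′ to 3′ on the strand of the gene, show the octamers in capitals.
SBNO2, chr19:1132237-1132297, minus strand: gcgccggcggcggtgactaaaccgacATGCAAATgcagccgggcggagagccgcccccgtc
ATP6V1C2, chr2:10721532-10721592, plus strand: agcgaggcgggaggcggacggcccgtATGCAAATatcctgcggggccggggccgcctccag
SEL1L3, chr4:25863756-25863816, minus strand: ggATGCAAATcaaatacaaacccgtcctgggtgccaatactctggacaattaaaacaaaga
The next pair shows the CRE letters in capitals, in the windows of FN1 and LAP3.
FN1, chr2:215436217-215436277, minus strand: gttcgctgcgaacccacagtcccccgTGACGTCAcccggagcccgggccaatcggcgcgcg
LAP3, chr4:17577069-17577129, plus strand: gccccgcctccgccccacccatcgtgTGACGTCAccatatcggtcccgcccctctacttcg
The STAT letters of DUSP3 and the AP-1 letters of PPP1R27 follow in the same form.
DUSP3, chr17:43779167-43779227, minus strand: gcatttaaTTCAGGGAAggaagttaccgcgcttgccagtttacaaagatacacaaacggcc
PPP1R27, chr17:81835152-81835212, minus strand: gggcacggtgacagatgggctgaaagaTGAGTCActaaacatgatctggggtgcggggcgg
SBNO2, FN1, LAP3, DUSP3 and PPP1R27 rose in the co-culture, and ATP6V1C2 and SEL1L3 fell. A match is a description of letters in this window, and binding of a factor was not measured.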

How the data were processed

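RNA sequencing of LPS-stimulated THP1 cells was analysed from 1 deposited table of counts, in which the authors gave whole-number reads for each gene in the 12 described samples. Reads had been aligned with HISAT2 to hg38 per the submitters' processing notes. The counting program, the annotation and the strand setting are not given in the sources used here. A further 4 columns matched no described sample and were not used. Samples were grouped by their GEO labels.

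Of 58735 rows, 34767 held a count and 25873 had a total of at least 10 counts over the 12 libraries and were tested. A symbol shared by several rows occurred 175 times. Counts were normalised by TMM and tested in edgeR 4.0.16 (glmQLFit and glmQLFTest) with limma 3.58.1 in R 4.3.3, with all 4 groups in the fit and 1 shared estimate of spread. P-values were Benjamini-Hochberg adjusted over all genes tested, and a gene was called at an adjusted p under 0.05. The SE of a log2 fold change was its size divided by the square root of F. CPM used TMM-scaled library sizes, and 3 counts (0.161 to 0.191 CPM) were taken as the detection floor. DESeq2 1.42.0 was an alternative, beside other filters, size factors, a fit of 6 libraries, a replicate block and leaving out each library. Scripts were tested on simulated data. Figures used Python 3.11.15 and matplotlib 3.10.9. Intervals cover counting error only.

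The members and gene lists were chosen with earlier results of these data known. In each direction, at most 12 called genes, ranked by the size of the log2 fold change, are given with all library values if the groups did not overlap and the higher group averaged at least 1 CPM, and other called genes, called list members and the study's displayed genes are named. From lists without a called gene, up to 3 members of highest mean CPM may be named. Positions came from GENCODE release 29 (57169 of 57169 symbols matched) and promoters from RefSeq GRCh38.p14.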

Additional observations from a re-analysis of the deposited data

How the results depend on the processing

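The count of 55 genes called between the EGCG-treated senEC co-culture and mono-culture rose to 230 with DESeq2 (129 higher, 101 lower), 377 without the filter on low counts (221 higher, 156 lower) and 109 with the 6 compared libraries alone, and fell to 36 (24 higher, 12 lower) with 10 counts required in every library and to 37 (25 higher, 12 lower) with edgeR's filterByExpr. DESeq2's size factors gave 57. Leaving out 1 library gave 12 to 104 genes. The count moved by over 1.5 times without mono-culture library 1 (26), 2 (12) or 3 (21), co-culture library 2 (21) or 5 (20) and senEC library 5 (104). All 55 genes stayed called without the filter and with DESeq2's size factors, and 54 in the fit of 6 libraries. With filterByExpr 37 of the 55 stayed called. With 10 counts required in every library, 35 stayed called of the 52 that passed that filter. AXL, DNASE2, CD1D and TP53I3 each lost the call in 2 of the 8 alternatives other than leaving out single libraries. Against senECs the count of 0 became 14 without the filter and stayed 0 to 0 without single libraries, and against control ECs it became 43 and 0 to 1.

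Mono-culture and the EGCG-treated senEC co-culture share only the replicate numbers 1 and 2, and the labels tie no number to a batch, so no pairing is given by the design. With a replicate block the counts were 424 against mono-culture, 13 against senECs and 34 against control ECs, and with numbers 3 and 5 joined as 1 block 782, 1 and 60. All 55 genes stayed called under both blocks. Deviations from the group means correlated at 0.495 and 0.336 for mono-culture and co-culture libraries 1 and 2. For mono-culture 3 with co-culture 5 the value was 0.425. Each library correlated best with that partner, a hint from the data and not from the labels. The 6 other pairs were negative. Deviations cancel out within a group, so a positive pair brings negative values among the others, and these add nothing to the hint. EGCG-treated senEC and senEC libraries of the same number (1, 2 and 5) correlated at 0.554, 0.0703 and 0.344. Libraries 1 and 5 correlated best with their own number, while EGCG-treated senEC library 2 correlated more with senEC library 5 (0.188).

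Of the inflammatory genes, none called as reported, the replicate block called IL7R (log2 fold change 2.08, adjusted p = 8.26e-19) and IL23A (-0.52, adjusted p = 0.0423), and the joined block called IL7R (2.20, adjusted p = 4.13e-16), CCL2 (0.63, adjusted p = 0.0214), MMP9 (1.00, adjusted p = 0.0321), MYD88 (0.33, adjusted p = 0.0330) and NFKB1 (0.29, adjusted p = 0.0373). Without the filter IL7R, MMP9 and CCL2 were called.

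Of the named genes, no called gene changed direction. Leaving out 1 library changed the sign of log2 fold changes that were not called, MMP9's 1.20 among them (without co-culture library 5). They ranged from -0.20 to 0.57 for SAA2 (-0.06 also reversed, and -0.10 with the replicate block), -0.70 to 0.95 for IL1B (-0.18 also reversed), -0.27 to 0.34 for IL6 (-0.0020 also), -0.49 to 0.37 for IL12B (-0.20 also), -0.57 to 0.27 for CXCL8 (0.09, 0.16 and 0.07 also), -1.43 to 0.79 for IL1A (0.02 and 0.03 also), -0.96 to 0.0027 for IL23A, -0.062 to 0.32 for CCL5, -0.17 to 1.87 for MMP9 and -0.0052 to 0.54 for NFKB1. The cause of these changes was not tested. At 3 libraries a group and 15439836 to 18736410 counts each, genes near the floor carry few reads.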
